A study of Mus musculus with 12 samples.

Results

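Klotho and the renal phosphate transport genes are a set of 7 genes: Kl, Fgfr1, Pth1r, Slc34a1, Slc34a3, Slc20a1 and Slc20a2. They were chosen by gene symbol for their roles in phosphate handling, with earlier results of these data known. They are 7 of the 40213 genes listed for the mouse kidney. All 7 passed the filter on low counts. Bulk RNA was sequenced from the kidneys of C57BL/6 mice, with 4 libraries in each of 3 groups and all 12 in batch 1 by the labels. Control mice had saline by intraperitoneal injection and a normal diet. The mice with chronic kidney disease (CKD) had the same injection of saline and a diet with 2% adenine, a model in which crystals injure the tubules. The third group had intraperitoneal colchicine, an alkaloid that binds tubulin, at a daily dose of 0.3 mg/kg on an adenine diet, labelled 2, 3, 4 and 5% in replicates 1, 2, 3 and 4. Only replicate 1 of the colchicine group therefore shares the 2% label of the CKD group, and in the other 3 libraries colchicine and the labelled adenine cannot be told apart. The labels name neither the animals nor their age or the length of feeding, so a p-value here covers only the spread among these libraries.

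The kidney sets blood phosphate by taking filtered phosphate back through sodium-coupled carriers in the brush border of the proximal tubule. Fibroblast growth factor 23 from bone acts on a receptor made of klotho and an FGF receptor, and parathyroid hormone acts on its own receptor, and both hormones lead to removal of the carriers from the brush border. Klotho is made most strongly in the distal convoluted tubule and also in the proximal tubule, and its loss is a known feature of chronic kidney disease.

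The 3 members with the lowest ratio of CKD to control were Slc34a3, Slc34a1 and Kl, and their promoters are shown so that their sequence can be set beside values that moved in the same direction. The 250 bases before each start site come from RefSeq on the GRCm38.p6 build, written 5′ to 3′ on the strand of the gene, with the motif matches in capitals. The windows are chr13:55399398-55399647 on the plus strand for Slc34a1, chr2:25234235-25234484 on the minus strand for Slc34a3 and chr5:150952357-150952606 on the plus strand for Kl.
Slc34a1: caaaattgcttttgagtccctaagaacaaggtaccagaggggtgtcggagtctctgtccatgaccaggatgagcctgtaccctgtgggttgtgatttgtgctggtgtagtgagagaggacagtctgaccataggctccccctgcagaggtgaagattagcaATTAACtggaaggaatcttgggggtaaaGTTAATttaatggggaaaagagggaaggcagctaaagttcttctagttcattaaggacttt
Slc34a3: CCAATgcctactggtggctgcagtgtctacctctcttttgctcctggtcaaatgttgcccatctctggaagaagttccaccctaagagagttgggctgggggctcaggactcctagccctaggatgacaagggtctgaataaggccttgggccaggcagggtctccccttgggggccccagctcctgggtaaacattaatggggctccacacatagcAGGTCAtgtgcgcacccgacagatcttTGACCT
Kl: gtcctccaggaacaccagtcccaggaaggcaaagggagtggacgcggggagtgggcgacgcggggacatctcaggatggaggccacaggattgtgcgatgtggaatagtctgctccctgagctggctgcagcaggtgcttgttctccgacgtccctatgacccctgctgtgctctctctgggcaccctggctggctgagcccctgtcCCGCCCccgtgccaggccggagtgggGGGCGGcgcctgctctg
The motifs searched on both strands were the TATA box TATAAA, the CCAAT box, the GC box GGGCGG, the nuclear receptor half-site AGGTCA, the E-box CACGTG and GTTAAT, a half-site of the HNF1 factors of the proximal tubule. GTTAAT stood in the Slc34a1 window 61 bases before the start and, on the other strand, 89 bases before it, and 6.43% of the 32851 RefSeq windows of 250 bases held it. The Slc34a3 window held AGGTCA 33 bases before the start and, on the other strand, 6 bases before it, against 14% of all windows, and CCAAT 250 bases before the start, against 33.8%. In the Kl window the matches were GGGCGG 17 bases before the start and, on the other strand, 43 bases before it, against 32.7% of all windows. The 3 windows shared none of the searched motifs, and the GC content was 46.4% for Slc34a1, 56.4% for Slc34a3 and 66.8% for Kl, against a median of 52.4% over all windows. A match is a run of letters and shows no binding. Promoters of Slc20a1 and Pth1r were also found, and Fgfr1 and Slc20a2 had no entry.

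Library totals ranged from 22.2 to 38.3 M counts (M, 1000000). Mitochondrially encoded transcripts took 41.5 to 46.7% of the counts in control, 16.7 to 17.3% in CKD and 14.6 to 21.8% with colchicine. Values are counts per 1000000 (CPM) after scaling by trimmed means, and directions and sizes of fold changes are relative to that scaling. Its factors were 0.586 to 0.646 in control and 1.23 to 1.27 in CKD. Scaling by library totals alone shifted the all-gene median log2 fold change to 1.05 for CKD against control and 1.14 for colchicine against control, and upper-quartile scaling moved it to 0.17 and 0.30. All 14 proximal tubule marker genes were lower in CKD than in control, and their summed level was 12680 to 13790 CPM in control, 1500.0 to 1893 in CKD and 577.6 to 1174 with colchicine. The largest part of this sum was Slc27a2, at means of 5254 CPM in control, 587.6 in CKD and 277.8 with colchicine. For colchicine against CKD 8 of the 14 proximal tubule markers were called lower and 6 were not called. Of 9 markers of the distal convoluted and connecting tubule 7 were lower and 2 higher, with sums of 1162 to 1437, 364 to 451 and 276 to 447 CPM, while library totals alone gave 3 lower and 3 higher. All 8 fibroblast markers, 8 macrophage markers and 8 injured tubule markers were higher in CKD. The fibroblast sum was 416 to 499, 3312 to 3925 and 4109 to 5283 CPM. Most of the fibroblast sum in the adenine groups was Col1a1, Col1a2 and Col3a1. Their means were 1235, 898 and 922 CPM in CKD and 1770, 1120 and 1090 CPM with colchicine. For colchicine against CKD 3 of the 8 fibroblast markers were called higher and 5 were not called. The macrophage sum was 97.1 to 119, 1756 to 1809 and 1200.0 to 1771 CPM. The injured tubule sum was 720.1 to 783, 15900.0 to 18710.0 and 8522 to 14860.0 CPM. Most of the injured tubule sum was Spp1, at means of 610.8 CPM in control, 15060 in CKD and 10010 with colchicine. For colchicine against CKD 2 of the 8 injured tubule markers were called lower (Spp1 and Vcam1) and 1 higher (Krt8), and 5 were not called. All 7 collecting duct markers, 7 of 8 endothelial markers and 3 of 5 markers of the thick ascending limb were lower, with 1 of the last higher, and under library totals alone 5, 1 and 2 were lower and 1, 6 and 2 higher. Of adrenal cortex markers, which would show adrenal tissue in the sample, Cyp11b2 was at 0 in all 12 libraries and the sum stayed between 1.74 and 3.19 CPM. The adipocyte sum was 40.5 to 104, 0.606 to 72.9 and 6.64 to 107 CPM. In bulk tissue, fewer cells of a type and less RNA per cell cannot be told apart, and the part of these shifts in the values of the 7 genes was not tested.

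**Figure D1:**
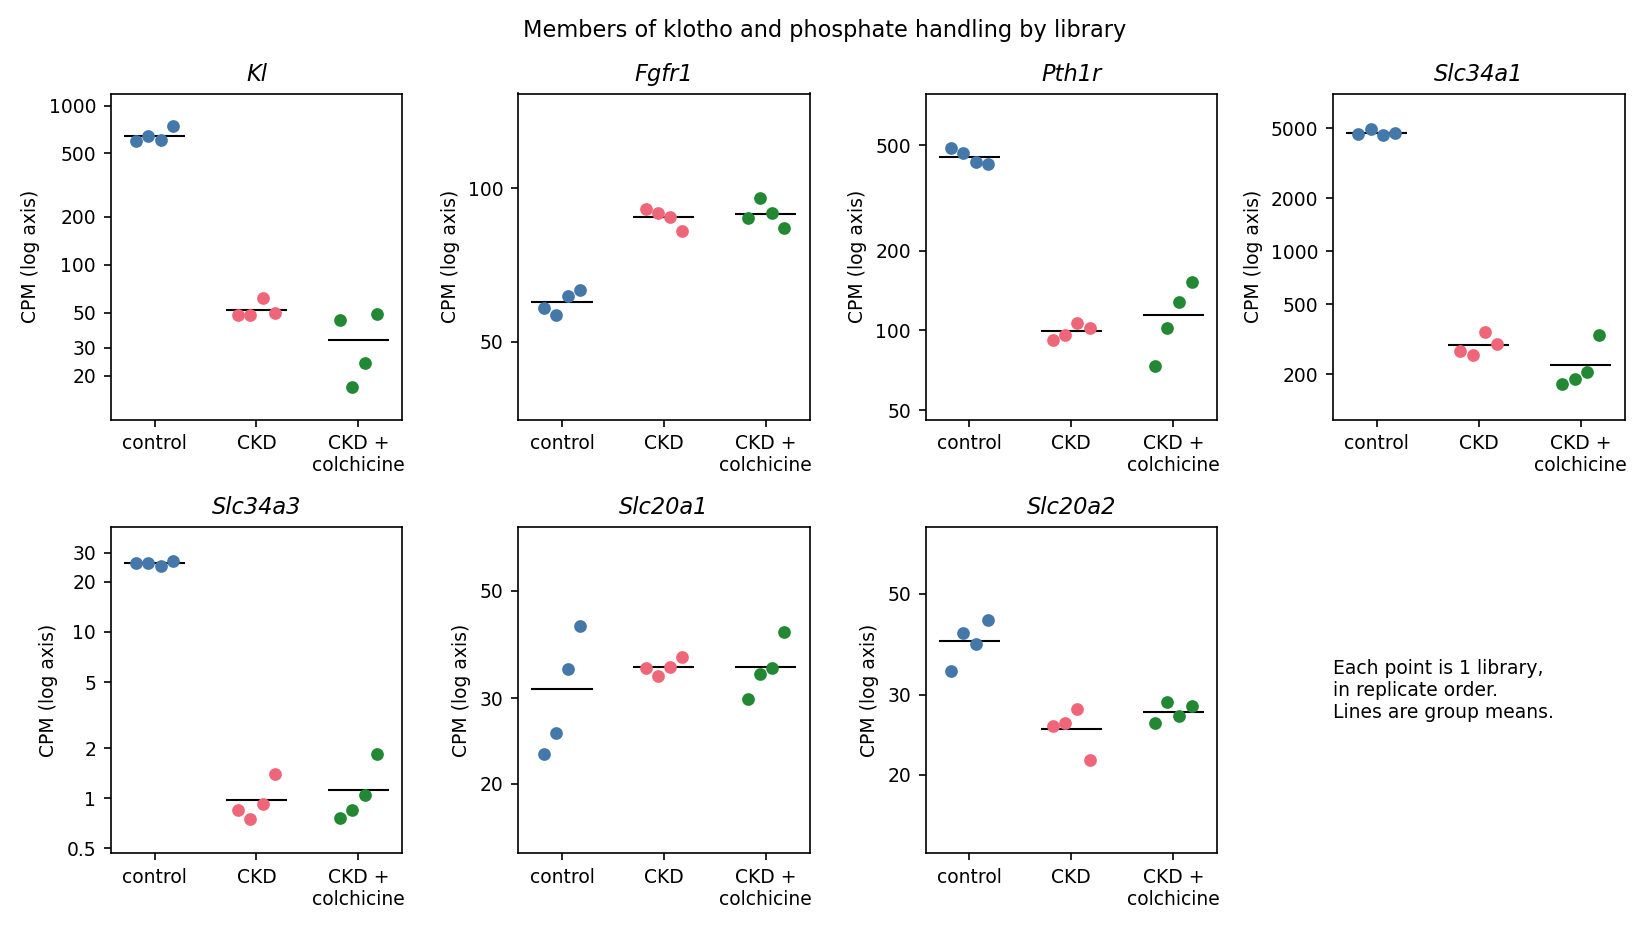
CPM on log axes (vertical) of Kl, Fgfr1, Pth1r, Slc34a1, Slc34a3, Slc20a1 and Slc20a2 in the 12 libraries, grouped as control, CKD and CKD with colchicine (horizontal), with 1 point per library and lines at the group means. The adenine libraries lie apart from the control libraries for 6 genes, and for Slc20a1 the control libraries span 23.0 to 42.3 CPM and overlap both other groups. For Slc20a2 the lower level in the adenine groups depends on the scaling, since its direction reversed under library totals alone.

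CKD was first set against control, the comparison that carries adenine feeding. Of the 7 genes, 5 fell, 1 rose and 1 did not pass the quasi-likelihood test of edgeR (called at an adjusted p below 0.05). The genes for klotho, the parathyroid hormone receptor and both NaPi-II carriers of the brush border fell by 4.56 to 26.1 times. The FGF receptor gene Fgfr1 rose 1.47-fold, and these sizes depend on the scaling by trimmed means. Over all 17841 genes tested, 33.4% were called lower and 34.1% higher, 67.4% in all, so a call in itself is common here. Of these calls 50.5% were higher, against 87.7% under library totals alone. Groups did not overlap for 6 of the 7, against 66.2% of all genes. With scaling by trimmed means a decrease of 4-fold or more was called for 5.54% of all genes and for Kl, Slc34a1, Slc34a3 and Pth1r. The median log2 fold change was -2.19 over the 7 genes and 0.038 over all genes. Under library totals alone 4 members were called lower and 3 higher.

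Kl encodes klotho, the co-receptor that gives FGF23 its high affinity for FGF receptors. Its level was 600.1, 641, 604 and 745 CPM in control replicates 1 to 4, and 48.5, 48.1, 62.1 and 49.4 CPM in the CKD replicates. Every CKD library was below every control library, and CKD replicate 3 stood above the other 3. The means were 647 ± 67.5 and 52.0 ± 6.75 CPM (SD, n = 4), so that CKD kidneys held 8.04% of the control level (edgeR adjusted p = 3.23e-07).

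Fgfr1 encodes the FGF receptor that pairs with klotho for FGF23. Control libraries stood at 58.2, 56.3, 61.5 and 63.3 CPM, and CKD libraries at 90.95, 89.6, 87.9 and 82.6 CPM. The groups did not overlap, and every CKD library was higher. The mean rose from 59.8 ± 3.15 to 87.8 ± 3.67 CPM (SD, n = 4), a log2 fold change of 0.55 ± 0.0664 (SE, edgeR adjusted p = 2.46e-06). Fgfr1 is also expressed by fibroblasts, whose 8 markers all rose. Within each library, the log2 ratio of Fgfr1 to the mean of the fibroblast list fell by 1.89 in CKD (exact permutation p = 0.0286, adjusted p = 0.0429 over 24 ratio tests). The log2 fold changes of the 8 markers ran from 1.62 to 3.78, with Col1a1, Col1a2 and Col3a1 highest and Fgfr1 below all 8. The part of fibroblasts in the Fgfr1 values was not tested.

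Pth1r encodes the receptor of parathyroid hormone, found on proximal tubule cells. The control libraries held 489, 466, 430.5 and 426 CPM, and the CKD libraries 92.05, 95.8, 107 and 102 CPM. All CKD libraries lay below all control libraries. The mean fell from 453 ± 30.1 to 99.2 ± 6.53 CPM (SD, n = 4), which is 4.56 times lower, at a log2 fold change of -2.19 ± 0.168 (SE, edgeR adjusted p = 2.89e-08).

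Slc34a1 encodes NaPi-IIa, the main phosphate carrier of the mouse proximal tubule. Control libraries stood at 4631, 4907, 4584 and 4706 CPM, and CKD libraries at 271, 258, 346 and 297 CPM. The gap between the groups was far wider than the spread inside either. The log2 fold change was -4.01 ± 0.188 (SE, edgeR adjusted p = 1.14e-10), which is 16.1 times lower.

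Slc34a3 encodes NaPi-IIc, the second sodium-phosphate carrier of the proximal brush border. It stood at 25.9, 25.98, 25.1 and 26.7 CPM in control and at 0.844, 0.748, 0.923 and 1.40 CPM in CKD. The CKD values rest on 24, 21, 31 and 48 counts, so counting error is larger here than for any other member. The control libraries were close to each other, and all CKD libraries lay below them. The mean fell from 25.9 ± 0.681 to 0.979 ± 0.291 CPM (SD, n = 4), 26.1 times lower, at a log2 fold change of -4.71 ± 0.229 (SE, edgeR adjusted p = 1.21e-10).

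Slc20a1 and Slc20a2 encode PiT-1 and PiT-2, sodium-phosphate carriers of another family that most cell types make. Slc20a1 stood at 23.0, 25.4, 34.5 and 42.3 CPM in control and at 34.7, 33.4, 34.9 and 36.5 CPM in CKD. The control libraries spread more widely than the CKD libraries, and the groups overlapped. Slc20a1 did not pass, at a log2 fold change of 0.16 ± 0.156 (SE, edgeR adjusted p = 0.391), but was called higher without control replicate 4, the highest control library (0.34, edgeR adjusted p = 0.036), and under library totals alone (1.16, adjusted p = 1.07e-05). Slc20a2 stood at 33.9, 40.95, 38.8 and 43.8 CPM in control and at 25.6, 26.04, 27.9 and 21.5 CPM in CKD, with every CKD library below every control library. Its log2 fold change was -0.64 ± 0.0936 (SE, edgeR adjusted p = 2.03e-05), and the direction reversed to 0.37 under library totals alone (adjusted p = 0.00463). A ratio within a library does not depend on the scaling. The log2 ratio of Slc20a1 to Slc20a2 was higher in CKD than in control by 0.83, with no overlap (exact permutation p = 0.0286, adjusted p = 0.0429).

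**Figure D2:**
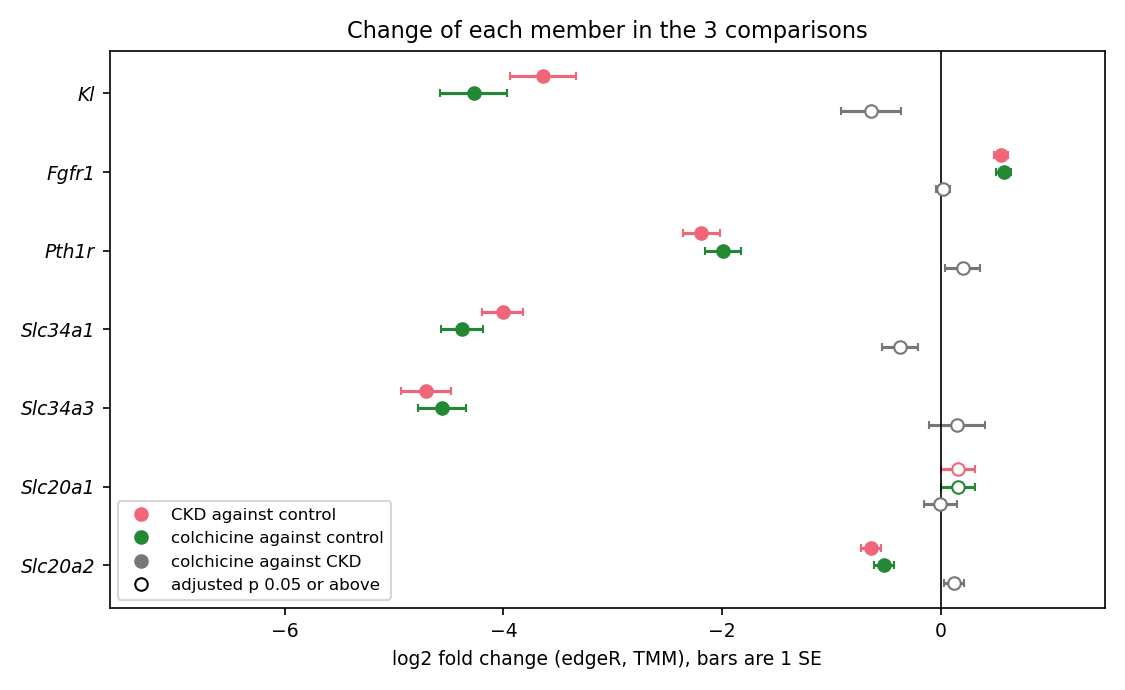
Log2 fold change (horizontal) of each of the 7 genes (vertical) for CKD against control, colchicine against control and colchicine against CKD, with bars of 1 SE and open points where the edgeR adjusted p was 0.05 or above. Both contrasts with control share their control libraries, and both place Slc34a3, Slc34a1, Kl and Pth1r far below 0, while all 7 points of colchicine against CKD are open. The Slc20a2 points against control lie below 0 with this scaling and above 0 under library totals alone, and the Slc20a1 points, open here, were called higher under library totals alone.

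The proximal tubule marker genes fell too, so the members were also set against them within each library, with exact two-sided permutation tests over 70 arrangements of the 8 libraries. The smallest p this design allows is 0.0286, which 16 of the 24 tests reached, and their adjusted p was 0.0429. Against the mean log2 level of the 14 markers, Slc34a1 fell by 1.04 from control to CKD on the log2 scale, a 2.06-fold difference, and Slc34a3 fell by 1.70, a 3.24-fold difference. Against the same list Kl fell by 0.66, and against the distal tubule list it fell by 2.03, which is 4.09-fold. Pth1r went the other way and was higher against the proximal tubule list by 0.78. Against Slc34a1, Slc34a3 fell by 0.66. In each of these 6 ratios the groups did not overlap (exact permutation p = 0.0286, adjusted p = 0.0429). The log2 fold changes of the 14 markers themselves ran from -4.95 to -1.45, and those of Slc34a3, Slc34a1, Kl and Pth1r lay inside that range. The distal tubule markers ran from -8.69 to 1.56, with Kl again inside. These ratios therefore set a member against the mean of a list and do not place it outside the markers listed.

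**Figure D3:**
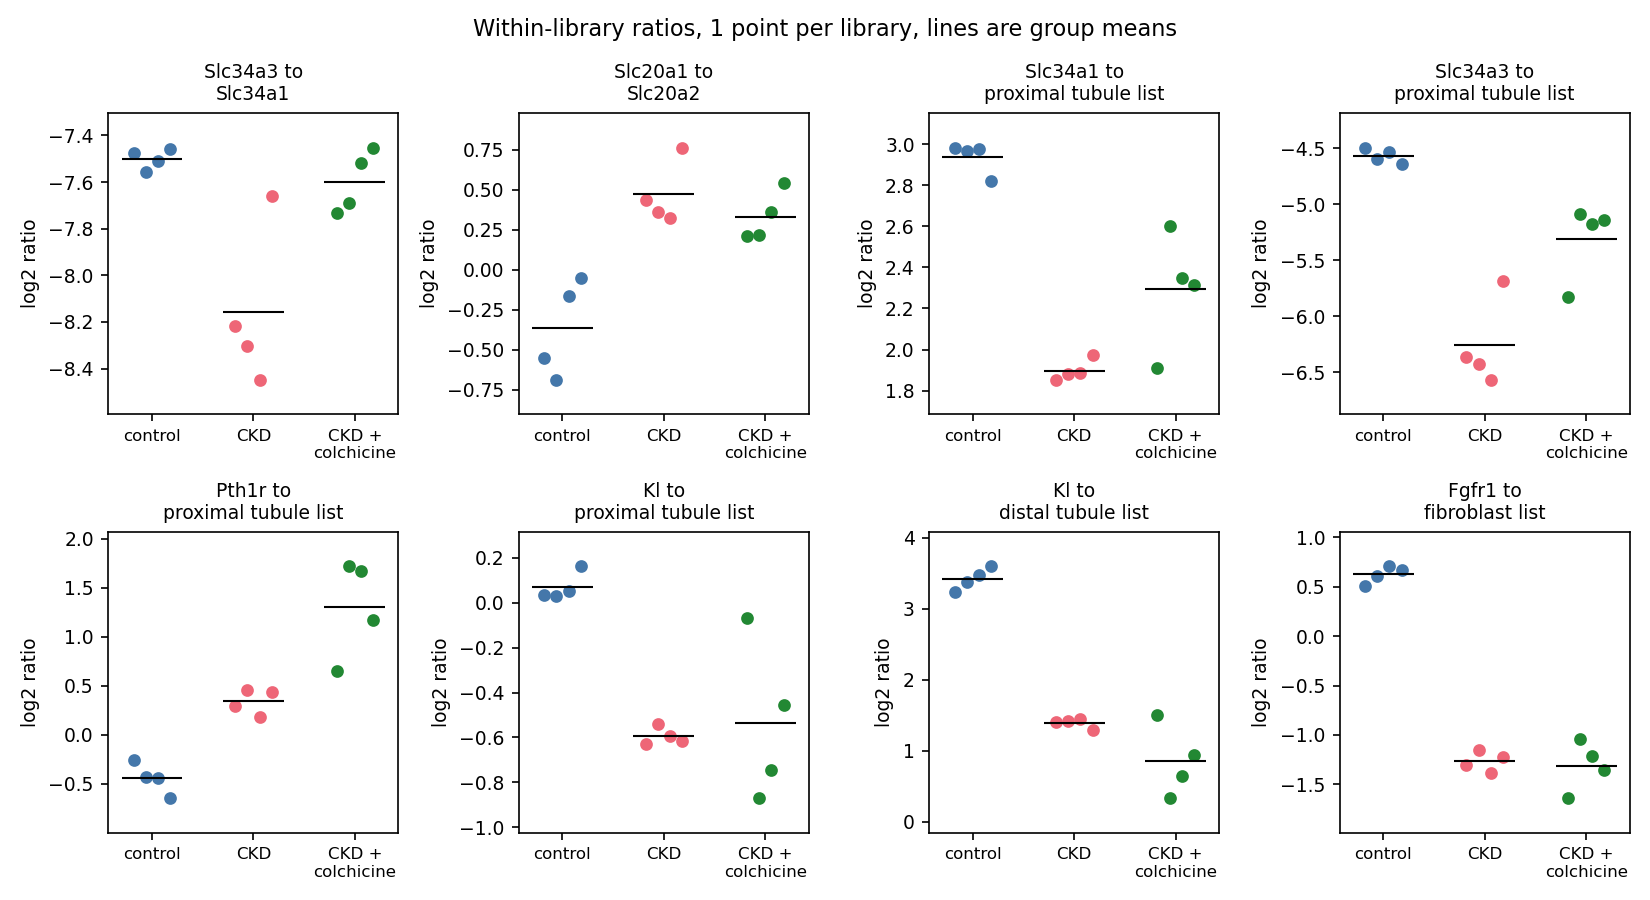
Log2 ratios within each library (vertical) for the 8 ratios tested, by group (horizontal), with 1 point per library and lines at the group means. In CKD the ratios of Slc34a1, Slc34a3 and Kl to the marker lists lie below control, and those of Pth1r to the proximal tubule list and of Slc20a1 to Slc20a2 lie above it. The Pth1r ratio is higher again with colchicine, at 0.65 to 1.72 against 0.19 to 0.45 in CKD.

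Levels were compared between genes as CPM per kilobase of transcript, using 1 principal transcript per gene. In control kidneys the order was Slc34a1 at 1182 ± 35.7, Pth1r at 196 ± 13.1 and Kl at 126.5 ± 13.2 CPM per kilobase (SD, n = 4), each apart from the next. Fgfr1, Slc34a3, Slc20a2 and Slc20a1 followed at 11.9, 11.9, 11.03 and 9.44 CPM per kilobase, and their libraries overlapped. In CKD the order was Slc34a1 at 73.6 ± 9.75, Pth1r at 43.0 ± 2.83, Fgfr1 at 17.5 ± 0.728, Slc20a1 at 10.5 ± 0.386, Kl at 10.2 ± 1.32, Slc20a2 at 7.08 ± 0.750 and Slc34a3 at 0.449 ± 0.133. Neighbours in that order did not overlap except Slc20a1 and Kl. With colchicine Slc34a1 at 56.8 ± 18.4 and Pth1r at 49.4 ± 14.6 overlapped, and so did Slc20a1 at 10.5 ± 1.41, Slc20a2 at 7.72 ± 0.377 and Kl at 6.58 ± 3.06, of which Slc20a1 and Slc20a2 did not overlap with each other. Fgfr1 at 17.7 ± 1.01 lay above them, and Slc34a3 at 0.515 ± 0.226 was lowest.

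A sum over 5 phosphate carriers was formed by adding Slc34a2, which encodes NaPi-IIb, a carrier better known from gut and lung. In CPM per kilobase this sum was 1215 ± 35.9 for control, 105 ± 10.2 for CKD and 87.7 ± 18.7 for colchicine (SD, n = 4). Slc34a1 made up 97.3 ± 0.313% of it in control, 69.7 ± 2.65% in CKD and 63.8 ± 6.36% with colchicine. Slc34a2 held 0.0675 ± 0.0173% in control, 13.0 ± 1.59% in CKD and 14.5 ± 4.63% with colchicine. Slc20a1 held 0.778 ± 0.223% in control and 10.05 ± 0.852% in CKD, and Slc20a2 0.907 ± 0.0858% and 6.76 ± 0.784%. The shares are of a smaller sum in CKD, and only Slc34a2 of the 5 carriers was called higher there under the scaling by trimmed means. Slc34a3 held 0.978 ± 0.0284% in control and 0.427 ± 0.125% in CKD. The shares were computed after the values had been seen and were given no test.

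**Figure D4:**
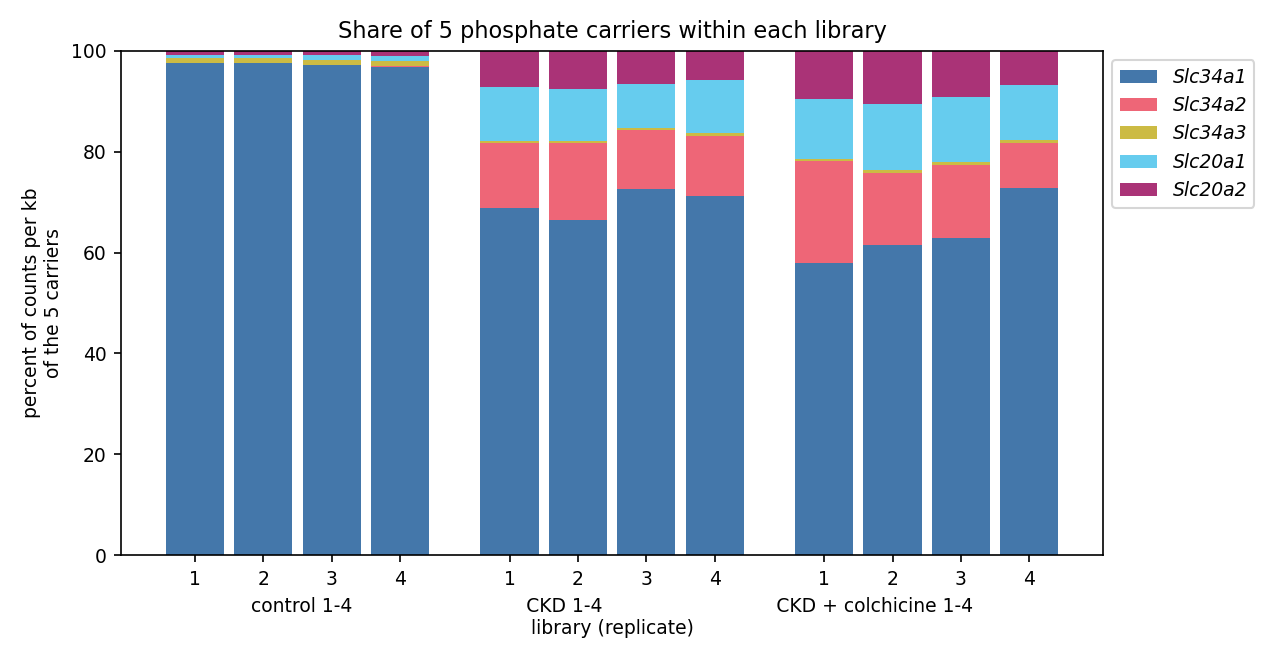
Share in percent (vertical) of Slc34a1, Slc34a2, Slc34a3, Slc20a1 and Slc20a2 in their summed CPM per kilobase in each of the 12 libraries (horizontal). Slc34a1 takes 96.9 to 97.5% in the control libraries, 66.5 to 72.5% in CKD and 58.0 to 72.8% with colchicine, where Slc34a2 takes 8.80 to 20.1%.

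Colchicine was then set against CKD, among adenine-fed kidneys. None of the 7 genes passed by edgeR, by DESeq2 or by limma-voom, and the members with an unadjusted edgeR p below 0.05 were Kl and Slc34a1. Over all genes 15% were called by edgeR, 6.79% higher and 8.24% lower, 33% had an unadjusted p below 0.05, and the groups did not overlap for 18.2%, against 0 of the 7 members. Of the calls 45.2% were higher, against 59.8% with upper-quartile scaling. Without CKD replicate 3 edgeR called 419 genes higher and 573 lower, and without colchicine replicate 1 it called 2882 and 3519. The median log2 fold change was 0.0225 over the members and 0.0307 over all genes. The CKD libraries stand in both contrasts, so values of colchicine against CKD and of CKD against control are not independent.

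Kl stood at 44.7, 16.95, 23.9 and 49.1 CPM in colchicine replicates 1 to 4. Replicates 2 and 3 lay well below all CKD libraries, replicate 1 just below them and replicate 4 inside their range. The mean was 33.7 ± 15.6 CPM (SD, n = 4), and the log2 fold change against CKD was -0.63 ± 0.274 (SE, unadjusted p = 0.0404, edgeR adjusted p = 0.134). Summed proximal tubule markers in the same 4 libraries were 1058, 578, 773 and 1174 CPM, so the libraries with less Kl also held less of these markers, and the part of this in the Kl values was not tested. Against the proximal tubule list Kl differed between colchicine and CKD by 0.059 on the log2 scale (exact permutation p = 0.80, adjusted p = 0.80). That log2 ratio was -0.069, -0.87, -0.75 and -0.45 in colchicine replicates 1 to 4, against -0.63 to -0.54 in CKD. Replicates 2 and 3 thus lay below all CKD libraries, and replicates 1 and 4 above them. Against the distal tubule list Kl differed by -0.54 (exact permutation p = 0.143, adjusted p = 0.171).

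Slc34a1 stood at 176.5, 189, 204.5 and 335 CPM with colchicine, with replicates 1 to 3 below all CKD libraries and replicate 4 inside their range. Its log2 fold change against CKD was -0.37 ± 0.167 (SE, unadjusted p = 0.0417, edgeR adjusted p = 0.136). Without colchicine replicate 4 it was called lower, at -0.63 (edgeR adjusted p = 0.00206), and over all libraries left out in turn the adjusted p ran from 0.00206 to 0.321. Relative to the proximal tubule list Slc34a1 was higher with colchicine by 0.40, which did not pass (exact permutation p = 0.0571, adjusted p = 0.0762). The same ratio to the median of the list passed, at 0.36 (exact permutation, adjusted p = 0.0381).

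Slc34a3 stood at 0.761, 0.848, 1.05 and 1.84 CPM with colchicine, from 28, 36, 52 and 53 counts, and its range overlapped the CKD range. The log2 fold change against CKD was 0.15 ± 0.256 (SE, edgeR adjusted p = 0.715), and -0.16 without colchicine replicate 4. Relative to the proximal tubule list Slc34a3 was 0.95 higher with colchicine than in CKD, which did not pass (exact permutation p = 0.0571, adjusted p = 0.0762), and the ratio to the median of the list passed at 0.92 (exact permutation, adjusted p = 0.0381). Pth1r stood at 73.6, 102, 128 and 152 CPM, with replicate 1 below all CKD libraries and replicates 3 and 4 above them. The log2 fold change of Pth1r was 0.20 ± 0.161 (SE, edgeR adjusted p = 0.401), and without colchicine replicate 1 it was called higher at 0.36 (edgeR adjusted p = 0.0159). Relative to the proximal tubule list Pth1r was higher with colchicine than in CKD in all 4 libraries, by 0.96 on the log2 scale (exact permutation p = 0.0286, adjusted p = 0.0429). It was the only 1 of the 8 ratios that passed for colchicine against CKD.

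The other 3 members lay close to their CKD levels. Fgfr1 stood at 87.4, 95.8, 89.5 and 83.8 CPM with colchicine, a log2 fold change of 0.02 ± 0.0654 (SE, edgeR adjusted p = 0.833). Slc20a1 stood at 29.96, 33.6, 34.6 and 41.2 CPM, at -0.00284 ± 0.153 (SE, edgeR adjusted p = 0.992). Slc20a2 stood at 25.9, 28.9, 26.9 and 28.3 CPM, at 0.12 ± 0.0925 (SE, edgeR adjusted p = 0.362). The signs of Fgfr1 and Slc20a1 changed between scalings, and the groups overlapped for all 3.

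The labelled adenine percentage rises with the replicate number within the colchicine group, so the label and the library cannot be told apart. It goes up by exactly 1 point from each replicate to the next while all 4 CKD libraries carry 2%, and whether the diets differed as labelled could not be settled from the labels or the counts. If they did not, the slopes that follow and the values read at 2% have no meaning as a dose. A model with a slope on that label called 226 of all genes. It called 292, 1088, 141 and 1707 without colchicine replicates 1, 2, 3 and 4, so its calls depend on the libraries included. Pth1r had a slope of 0.35 ± 0.0471 log2 units per labelled percent (SE, edgeR adjusted p = 0.00449), and the adjusted p was 0.00294 to 0.0463 when each colchicine library was left out in turn. The slope of Slc34a1 was 0.29 ± 0.064 (SE, edgeR adjusted p = 0.0388), and without replicate 4 it was 0.11 (adjusted p = 0.448), so this call rests on that library. Slc34a3 had a slope of 0.43 ± 0.115, which did not pass (SE, edgeR adjusted p = 0.0812). The slope of Kl was 0.06 ± 0.17 (SE, edgeR adjusted p = 0.853), but 0.77 without replicate 1 (adjusted p = 0.00183) and -0.45 without replicate 4 (adjusted p = 0.142). Read at the 2% label of the CKD group, the model put Slc34a1 at -0.85 against CKD on the log2 scale (edgeR adjusted p = 0.00301), and Slc34a3 and Pth1r at -0.56 and -0.37, which did not pass (adjusted p = 0.279 and 0.0503). The summed proximal tubule markers and the mitochondrial share also differed among these libraries, the latter from 14.6% in replicate 1 to 21.8% in replicate 4, and the part of this in the slopes was not tested.

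Against control, the colchicine group showed 5 members lower and 1 higher by edgeR, where 33.4% of all genes were lower and 37.1% higher, 70.5% in all. Of the calls over all genes 52.6% were higher, against 62.7% with upper-quartile scaling and 87.6% under library totals alone. Log2 fold changes were -4.56 ± 0.223 for Slc34a3, -4.38 ± 0.191 for Slc34a1, -4.27 ± 0.308 for Kl, -1.99 ± 0.167 for Pth1r and 0.58 ± 0.0663 for Fgfr1 (SE). Slc20a2 fell by 0.52 ± 0.093, with the direction reversed to 0.52 under library totals alone, and Slc20a1 did not pass at 0.15 ± 0.155 (SE, edgeR adjusted p = 0.384). The colchicine libraries overlapped with control only for Slc20a1, so 6 of the 7 did not overlap, against 62.5% of all genes. Kl thus stood at 33.7 CPM and Slc34a1 at 226 CPM on average with colchicine, against 647 and 4707 CPM in control.

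Other genes of the pathway came from lists chosen for their roles, also with earlier results of these data known. The ligand FGF23 is a bone hormone, and its kidney counts were 0, 1, 0 and 0 in control, 6, 7, 10 and 4 in CKD and 9, 15, 4 and 8 with colchicine. Fgf23 was too low for the model. The pooled ratio of CKD to control was 14.9, with a 95% exact binomial interval of 2.46 to 610.0 for counting error only, and it rests on 1 control count in replicate 2, without which control held none. The ratio of colchicine to CKD was 1.05 (0.621 to 1.80). Pth, the gene of parathyroid hormone, had 1 count over all 12 libraries. Of 16 tested genes of FGF23 receptors and signalling, 6 rose and 3 fell in CKD, while library totals alone gave 11 higher and 2 lower. The other FGF receptor genes differed in direction from each other. Fgfr2 rose by 0.49 ± 0.197 (SE, edgeR adjusted p = 0.0413), a call lost in 8 of 22 alternatives, 5 of which left out a library, replicates 1, 2 or 4 of control or 1 or 4 of CKD. Fgfr4 fell by 1.37 ± 0.127, and Fgfr3 fell by 0.985 ± 0.0884, the latter at 0.025 under library totals alone. Klb, the klotho relative that serves other FGFs, did not pass at -0.38 ± 0.889 (SE, edgeR adjusted p = 0.726), from 33 counts in control and 46 in CKD, and it turned sign under library totals alone. Etv4, a transcription factor induced by FGF signalling, rose by 2.93 ± 0.219 in CKD and again by 0.67 ± 0.163 with colchicine (SE, edgeR adjusted p = 1.15e-08 and 0.0168). Sos1, an exchange factor that activates Ras, fell with colchicine against CKD by 0.41 ± 0.0957 (SE, edgeR adjusted p = 0.0127). The Etv4 call against CKD was lost without CKD replicate 4 or colchicine replicate 2, and the Sos1 call without CKD replicate 3. Both were also lost in the edgeR slope model read at the 2% label (0.67 and -0.28, adjusted p = 0.0985 and 0.215).

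Among the 7 tested genes of klotho and FGF23 processing, 4 rose and 2 fell in CKD, against 6 higher and 0 lower under library totals alone. The proteases that shed klotho from the cell surface were among the higher genes, with Adam17 at 1.11 ± 0.0994 (SE, edgeR adjusted p = 8.72e-08) and the secretase gene Bace1 at 0.89 ± 0.0784 (SE, edgeR adjusted p = 7.53e-08). For colchicine against CKD the 7 genes lay between -0.32 and 0.11, with Adam17 at -0.21 ± 0.0953 and Enpp1, whose product makes pyrophosphate, at -0.22 ± 0.103 (SE, edgeR adjusted p = 0.139 and 0.152). Both passed with 1 library left out, Adam17 at -0.32 without colchicine replicate 1 and Enpp1 at -0.34 without colchicine replicate 2 (edgeR adjusted p = 0.00444 and 0.0387). Of the 8 genes for scaffolds and trafficking of the NaPi-II carriers, 6 fell and 1 rose in CKD, while library totals alone gave 3 lower and 4 higher. Nherf1, whose product anchors NaPi-IIa in the brush border, fell by 1.56 ± 0.0787, and the related scaffold gene Pdzk1 by 2.97 ± 0.188 (SE, edgeR adjusted p = 1.46e-10 and 3.81e-09). With colchicine 4 of the 8 fell against CKD, including Pdzk1 by 0.68 ± 0.176, Nherf1 by 0.25 ± 0.0772 and Ezr, the gene of the membrane linker ezrin, by 0.34 ± 0.0814 (SE, edgeR adjusted p = 0.0225, 0.041 and 0.0155). Ezr had not passed for CKD against control, at 0.13 ± 0.0814 (SE, edgeR adjusted p = 0.157). Under library totals alone 2 of the 8 were called lower and 1 higher, and likewise with upper-quartile scaling. Of 23 alternatives, 14 lost the Nherf1 call and 5 the Pdzk1 call. The Ezr call was lost without CKD replicate 3 or colchicine replicate 2, and the Pdzk1 call without CKD replicate 3 or 4 or colchicine replicate 3. The Ezr call was also lost in the edgeR slope model read at the 2% label (-0.27, adjusted p = 0.183).

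Of 11 other tested phosphate carriers and sensors, 6 fell and 4 rose in CKD, and under library totals alone 5 fell and 6 rose. Slc34a2 stood at 4.26, 2.60, 2.81 and 4.00 CPM in control and at 54.1, 62.0, 59.1 and 52.3 CPM in CKD, with no overlap. It rose 16.7-fold, while its relatives Slc34a1 and Slc34a3 fell (log2 4.06 ± 0.166, SE, edgeR adjusted p = 2.2e-11). Ank, which exports pyrophosphate and ATP, rose by 1.91 ± 0.0882, and Xpr1, the phosphate exporter gene, fell by 1.21 ± 0.0814 (SE, edgeR adjusted p = 5.94e-11 and 3.45e-09). With colchicine 4 of the 11 fell against CKD, 3 under library totals alone, led by the apical anion transporter genes Slc17a1 at -1.25 ± 0.231 and Slc17a3 at -1.17 ± 0.252 (SE, edgeR adjusted p = 0.00643 and 0.0122), and both calls held in all 23 alternatives. Xpr1 fell further by 0.28 ± 0.0807 (SE, edgeR adjusted p = 0.0355), a call lost in 11 of 23 alternatives, among them without any 1 of the 4 CKD libraries or colchicine replicate 2 or 3.

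In the PTH signalling list, 5 of 13 tested genes rose and 4 fell in CKD, while 13 rose and 0 fell under library totals alone. Arrb2, an arrestin that ends receptor signalling, rose by 2.15 ± 0.0859 (SE, edgeR adjusted p = 1.38e-11). Gnas, the stimulatory G protein that Pth1r uses, fell by 0.44 ± 0.0637, with the direction reversed to 0.57 under library totals alone. For colchicine against CKD, Casr, the calcium-sensing receptor gene, fell by 0.52 ± 0.122 (SE, edgeR adjusted p = 0.0138). Without CKD replicate 3 Casr stood at -0.47 and just missed the threshold (edgeR adjusted p = 0.0536). It also missed in the edgeR slope model read at the 2% label (-0.62, adjusted p = 0.0503). Gnaq, a G protein subunit gene, did not pass at 0.19 (edgeR adjusted p = 0.0622). It was called higher by DESeq2 (adjusted p = 0.0326), with upper-quartile scaling (0.0365), with a minimum count of 50 (0.0435) and without colchicine replicate 1 (0.0103). Of the vitamin D hormone genes, the receptor gene Vdr fell by 1.498 ± 0.119 in CKD and by 0.46 ± 0.117 with colchicine against CKD (SE, edgeR adjusted p = 2.41e-08 and 0.0204), the latter lost without CKD replicate 2 or 3 or colchicine replicate 2. Cyp27b1, which activates vitamin D, did not pass for CKD against control, with -0.24 ± 0.232 (SE, edgeR adjusted p = 0.374) and a reversed sign, 0.78, with library totals alone. Cyp24a1, which breaks vitamin D down, stood at 17.0, 30.8, 59.1 and 69.6 CPM with colchicine and at 93.6, 86.6, 108 and 74.1 CPM in CKD, with no overlap, but did not pass (log2 -1.04 ± 0.391, SE, edgeR adjusted p = 0.0971). It passed by DESeq2 (-1.07, adjusted p = 0.042) and in the edgeR slope model read at the 2% label (-2.29, adjusted p = 0.00277). For CKD against control Cyp24a1 stood at -0.13 ± 0.387 (SE, edgeR adjusted p = 0.784), and its sign turned under upper-quartile scaling and library totals alone.

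**Figure D5:**
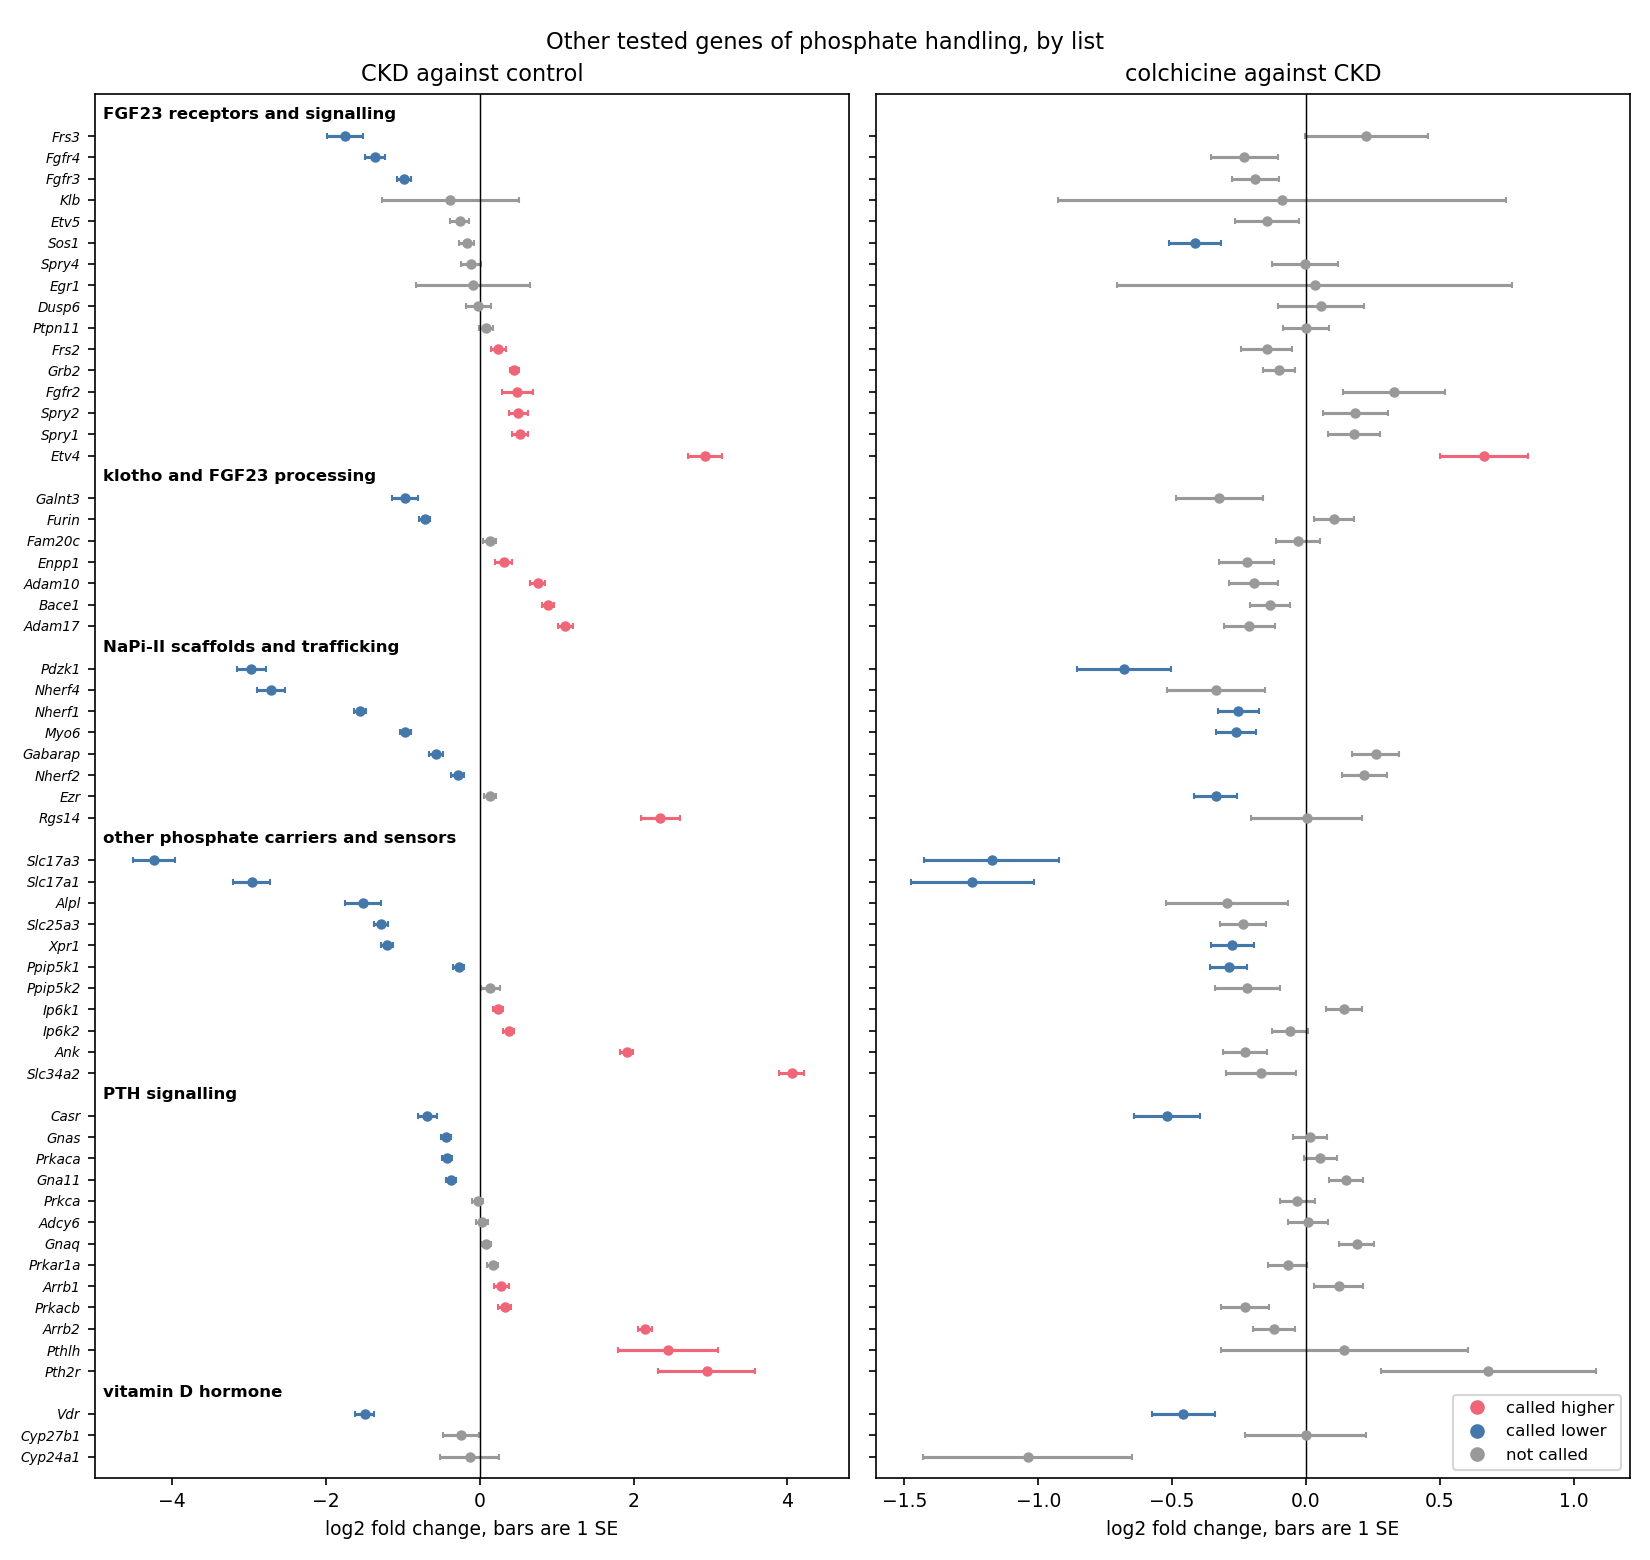
Log2 fold change with bars of 1 SE (horizontal) of the other tested pathway genes by list (vertical), for CKD against control and colchicine against CKD, with called genes in colour. Slc34a2 at 4.06 and Slc17a3 at -4.24 mark the ends of the left panel, and in the right panel Etv4 is the only gene called higher, while upper-quartile scaling called 1 gene higher in each of 3 further lists. In the left panel several directions, among them those of Gnas and Fgfr3, reversed under library totals alone.

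The genes most like each member were those with the smallest root-mean-square difference of centred log2 CPM over the 12 libraries, among 13748 genes, as a description. Kl was most like Lrp2, the endocytic receptor megalin of the proximal tubule (0.14), then Cltrn and Slc6a20b. Slc34a1 was most like Nat8f1 (0.113), Slc22a18 and Ass1. Slc34a3 was most like Proz (0.299) and Amacr, and Slc34a1 came next (0.344). Pth1r was most like COX3, a mitochondrially encoded subunit of the respiratory chain (0.0979), then Chchd10 and Fxyd2, none of them among the nearest genes of Kl or Slc34a1. Fgfr1 was most like Atxn7l3 (0.0476), Foxj2 and Abl1. Slc20a2 was most like Borcs5 (0.0903), Araf and Fastk, and Slc20a1 like Spopl (0.149) and Ercc8. All points share the 12 libraries and their scaling.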

How the data were processed

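Total RNA of 12 mouse kidneys was extracted with RNAiso Plus reagent and made into libraries with a CORALL kit, according to the labels. Reads were handled with fastp, STAR and Salmon on GRCm39, per the submitters' processing notes, with versions and options not given in the sources used here. Whole numbers per gene were deposited by the authors and taken as estimated counts (expected counts) after rounding, and the 28 values of 1000000 or more are all multiples of 10. No 2 libraries of a group held the same counts.

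Counts were analysed with edgeR 4.0.16 and limma 3.58.1 in R 4.3.3: filterByExpr with a minimum count of 10, TMM scaling, and a robust quasi-likelihood model of 3 group means over all 12 libraries, so that groups share 1 estimate of the spread. Tests were two-sided, adjusted by Benjamini-Hochberg over the 17841 genes tested, and called at an adjusted p below 0.05. The SE is the log2 fold change over the square root of F. CPM are TMM-scaled counts per 1000000 (mean ± SD, n = 4). Ratios within a library were formed from log2 CPM (prior count 2) and compared by exact two-sided permutation tests. CPM per kilobase used GENCODE M21 principal transcripts. The fits were also run on simulated data, and the outcome is not given here.

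The members and lists were chosen with earlier results of these data known. The genes named are the 7 members, of each pathway list the 2 with the smallest p in each of CKD against control and colchicine against CKD, 13 further genes whatever their result, and for each member the 3 most alike, of which 1 is not reported here. Of the listed genes, 2 were matched under another symbol (Ank and Nherf4). Alternatives were DESeq2 1.42.0, limma-voom, upper-quartile, RLE and library-total scaling, no mitochondrial transcripts, no low-count filter or a minimum of 50, the 8 libraries compared only, a replicate block, the labelled adenine as a slope, a prior count of 0.5 or the list median in the ratios, and leaving out each library. The slope without each colchicine library, list counts under other scalings and the carrier shares were added after seeing the data. Same-numbered libraries did not deviate together (correlation -0.279 to 0.19 over 12 pairs, against -0.37 to 0.417 over 36 differently numbered pairs). The numbers were therefore not taken to pair samples.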

Additional observations from a re-analysis of the deposited data

Results flagged for a closer look

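In the CKD group, Kl in replicate 3 stood at 62.1 CPM, apart from 48.5, 48.1 and 49.4 CPM in the other 3 libraries. The gap was 0.911 of the range of the group, above Dixon's 95% critical value for 4 samples. The summed proximal tubule markers were also highest in replicate 3, at 1893 CPM against 1530, 1500 and 1608 CPM in replicates 1, 2 and 4. The log2 ratio of Kl to that list was -0.59 in replicate 3, inside the CKD range of -0.63 to -0.54. The part of the markers in the Kl value was not tested. The members give 21 such groups, and chance marks about 1 in 20.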

How the results depend on the processing

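Over the alternatives, the fold changes of the members kept direction and side of the threshold in 451 of 476 values, reversed in 17 and newly passed the threshold in 8. The count of 5 members lower against control held in both comparisons under each alternative but library totals alone, which gave 4. For CKD against control, library totals gave 13197 genes higher and 1850 lower, 3 members higher, Slc20a1 at 1.16 and Slc20a2 at 0.37, Cyp24a1 at 0.86, Cyp27b1 at 0.78, Fgfr3 at 0.025, Gnas at 0.57 and Klb at 0.62, and upper-quartile scaling put Cyp24a1 at 0.0037. For colchicine against control they gave 13762 higher, 1953 lower and 3 members higher, Slc20a1 at 1.18 and Slc20a2 at 0.52. Upper-quartile scaling gave 2 members higher there, with Slc20a1 at 0.36, and the slope read at 2% put Slc20a1 at -0.065.

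For colchicine against CKD, DESeq2 called 2266 genes lower. Signs turned for Fgfr1 (-0.0025 by DESeq2, -0.0032 by RLE) and Slc20a1 (0.061 by upper quartile, 0.017 by totals, 0.00014 without mitochondrial transcripts, 0.021 with a minimum count of 50). The slope read at 2% gave 392 genes higher, 616 lower and 1 member lower, with Slc34a1 at -0.85, Slc34a3 at -0.56 and Pth1r at -0.37. The median of the list put the ratio of Fgfr1 to fibroblasts at 0.023. A replicate block called 694 genes higher and 1062 lower, ended the calls of Nherf1 and Xpr1 here and of Fgfr2 in CKD against control, and changed no member's call.

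Leaving out each library in turn gave, for CKD against control, 1 to 2 members higher, Slc20a1 at 0.034 to 0.34 and Klb at -1.30 to 0.31. For colchicine against control it gave 1 to 2 members higher and Slc20a1 at 0.029 to 0.33. For colchicine against CKD it gave 419 to 2882 genes higher and 573 to 3519 lower, the lowest without CKD replicate 3 and the highest without colchicine replicate 1. There 0 to 1 members were higher and 0 to 1 lower, with Slc34a1 at -0.63 to -0.28, Slc34a3 at -0.16 to 0.38, Pth1r at 0.023 to 0.36, Fgfr1 at -0.015 to 0.043 and Slc20a1 at -0.10 to 0.059. The causes were not tested. With 3 libraries against 4 the smallest exact p is 0.0571, so no ratio could pass then. Depth limits Slc34a3 in the adenine groups, at 21 to 53 counts, and Fgf23.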
